A study of Mus musculus with 16 samples.

Results

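The mouse genes that carry, move and take up brain lipoproteins were examined in bulk brain RNA of mice treated with evacetrapib or vehicle. They were 9 genes, Apoe, Clu, Apod, Pltp, Lcat, Abca1, Abcg1, Scarb1 and Lrp1, of the 55487 genes in the count table, found by gene symbol. All 9 passed the filter on low values, 10 counts or more in 4 mice or more, as did 18609 genes in all. RNA of 16 female mice was sequenced, 4 in each of 4 groups. The groups were vehicle-treated CETPtg mice (S1 to S4), evacetrapib-treated CETPtg mice (A to D), vehicle-treated APPtg/CETPtg mice (S5 to S8) and evacetrapib-treated APPtg/CETPtg mice (E to H).

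All 16 mice were C57BL/6J, were heterozygous for the human CETP transgene and ate a diet with 1% cholesterol from 11 weeks of age. Evacetrapib, a small-molecule CETP inhibitor, was injected intraperitoneally every day at 30 mg/kg for 11 weeks, and vehicle mice received Kolliphor EL-glucose. Brain tissue was taken at week 12 of the trial. The APPtg/CETPtg mice also carried human APP with familial Alzheimer's disease mutations, which the Thy1 promoter drives in neurons. No mouse without the CETP transgene was sequenced, so the effect of CETP itself was not examined here. Both transgenes are human, and only mouse genes were analysed here.

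CETP moves cholesteryl esters from HDL to other lipoproteins in plasma, and mice have no CETP gene of their own. The brain is cut off from plasma lipoproteins by the blood-brain barrier and makes its own HDL-like particles. Astrocytes release cholesterol through the transporters ABCA1 and ABCG1 onto apolipoprotein E, LCAT esterifies it, PLTP transfers phospholipid between particles, and neurons take the particles up through receptors such as LRP1. Transcription of Abca1 and Abcg1 rises when oxysterols activate the liver X receptors (LXR). The comparisons below ask whether CETP inhibition, or the APP transgene, went with different RNA levels of this machinery in brain.

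The upstream sequences of Abca1, Lrp1 and Pltp are shown because Abca1 and Lrp1 were called between the genotypes in vehicle-treated mice and Pltp gave the largest treatment difference over all mice. Each is the 250 bases before the RefSeq start, 5′ to 3′ on the gene's strand, from RefSeq (GRCm38.p6). Capitals mark matches, on either strand, to a GC box (GGGCGG), an E-box (CACGTG) or a pair of NGGTNA half-sites in direct repeat spaced by 4 bases, the arrangement that LXR binds as a dimer with RXR.
Abca1: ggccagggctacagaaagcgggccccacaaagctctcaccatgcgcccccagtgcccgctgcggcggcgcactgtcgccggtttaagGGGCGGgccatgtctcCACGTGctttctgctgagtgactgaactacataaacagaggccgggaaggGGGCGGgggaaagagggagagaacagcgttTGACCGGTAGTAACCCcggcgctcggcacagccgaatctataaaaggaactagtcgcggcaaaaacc
Lrp1: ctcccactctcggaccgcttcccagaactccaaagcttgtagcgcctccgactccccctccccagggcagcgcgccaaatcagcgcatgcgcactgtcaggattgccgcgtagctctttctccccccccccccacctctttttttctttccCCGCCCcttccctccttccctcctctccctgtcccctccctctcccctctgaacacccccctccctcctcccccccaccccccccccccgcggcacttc
Pltp: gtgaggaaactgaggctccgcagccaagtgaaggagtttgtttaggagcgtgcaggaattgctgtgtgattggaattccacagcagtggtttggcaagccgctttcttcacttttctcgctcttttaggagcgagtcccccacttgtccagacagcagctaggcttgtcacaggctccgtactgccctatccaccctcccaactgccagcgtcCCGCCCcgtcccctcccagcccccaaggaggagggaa
The Abca1 sequence lies at chr4:53159896-53160145 on the minus strand. Counted from the start, with the last base before it as -1, its direct repeat spans -67 to -52, its E-box -147 to -142, and its GC boxes -163 to -158 and -97 to -92. The Lrp1 sequence (chr10:127621149-127621398, minus strand) holds a GC box at -99 to -94, and the Pltp sequence (chr2:164857709-164857958, minus strand) one at -37 to -32. Of 32841 RefSeq promoters of the same length, 0.621% held the direct repeat, 6.02% the E-box and 32.7% the GC box. These are letter matches and not measured binding. Sequences of 6 of the 9 genes were found, and none for Clu, Abcg1 or Scarb1. Those of Apoe, Lcat and Apod, not shown, held no match to any of these motifs.

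In the mm10 annotation the genes lie at chr7:19696109-19699188 (Apoe), chr14:65968483-65981547 (Clu), chr16:31296192-31314808 (Apod), chr2:164839518-164857711 (Pltp), chr8:105939551-105943382 (Lcat), chr4:53030787-53159895 (Abca1), chr17:31057675-31117988 (Abcg1), chr5:125277087-125341094 (Scarb1) and chr10:127538161-127621148 (Lrp1). Clu and Abcg1 are on the plus strand and the others on the minus strand. Pltp overlaps Ctsa, Lcat overlaps Gm16156 and Lrp1 overlaps Gm16217 on the opposite strand, while Abcg1 overlaps Gm25447 and Scarb1 overlaps Gm42633 on the same strand. The strand setting of the counting is not given in the sources used here.

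Levels are given as CPM, counts scaled to a common library size with TMM factors. Counts on genes ranged from 21391335 to 55453789 per mouse. CETPtg libraries held 28626139 to 46800787 counts, and APPtg/CETPtg libraries 21391335 to 27398792 except S8, which held 55453789. The library labels give index plate positions. The genotypes used different plate columns and the treatments different plate rows, so plate column and genotype, and plate row and treatment, cannot be told apart. Plate column was also uneven by treatment. Columns 8 (E and F) and 11 (A and B) held only evacetrapib-treated mice, and columns 9 and 12 held both treatments. Markers of neurons, astrocytes, oligodendrocytes, microglia, endothelial cells and mural cells were detected in every mouse. The summed level of 10 choroid plexus markers was uneven, from 16 to 45.4 CPM in 12 mice but 127, 131, 179 and 473 CPM in S7, B, S3 and S8. In bulk tissue, fewer cells of a type and less RNA per cell cannot be told apart.

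Levels of the carriers stood far above those of the transporters. Per kilobase of summed exon length, Apoe, the main apolipoprotein of the brain, was highest at 688 ± 48.2 CPM per kb (SD over the 16 mice). Clu (clusterin, also called apolipoprotein J) followed at 225 ± 16, and Apod (apolipoprotein D) at 56.2 ± 4.52 CPM per kb. The ranges of these genes over the 16 mice did not overlap one another or those of any gene below them. The receptor Lrp1 had 37.2 ± 2.55 and the transfer protein Pltp 33.0 ± 3.68 CPM per kb, and their ranges overlapped. Abcg1 had 13.2 ± 0.729 and Lcat 12.5 ± 1.76 CPM per kb, which also overlapped. Lowest were Abca1, at 5.12 ± 0.717, and the HDL receptor Scarb1, at 4.23 ± 0.417 CPM per kb, again with overlapping ranges. Per kilobase of the longest transcript instead, Scarb1 had 11.6 CPM per kb, which placed it above Abca1 at 5.17. Abcg1 varied least over all mice, with a coefficient of variation of 5.54%, and Lcat and Abca1 most, each at 14.0%. The lowest count of any of the 9 genes in a mouse was 310 (Lcat, S5) and the highest 87471 (Apoe, S8).

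**Figure D1:**
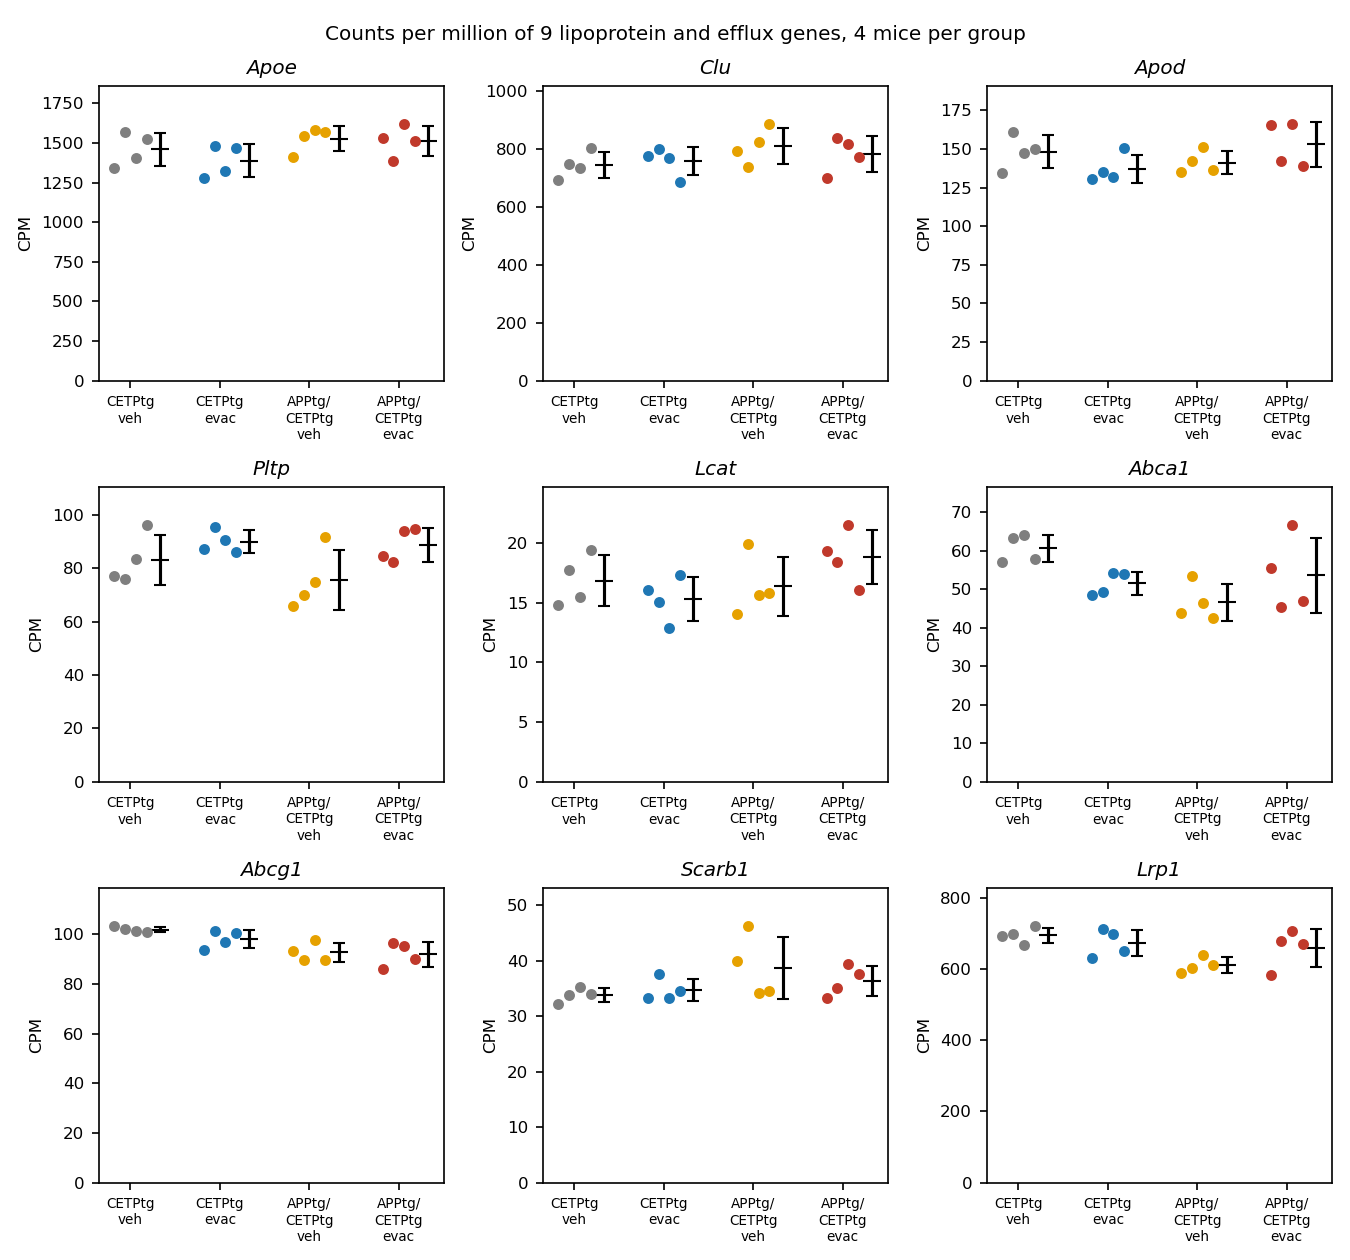
CPM of each gene (vertical axes, from 0) in the 4 mice of each group (points; veh, vehicle; evac, evacetrapib), with the mean and SD (bars). Abca1 in the 4 vehicle-treated CETPtg mice lies at 57.2 to 64.1 CPM, above the 3 other groups except for 1 evacetrapib-treated APPtg/CETPtg mouse at 66.6 CPM, while groups of most other genes overlap.

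No gene of the 9 passed the test for a difference with evacetrapib. A gene was called changed at a Benjamini-Hochberg adjusted p of at most 0.05 in edgeR's quasi-likelihood test with a fold change of at least 5%. By that rule 0 of 9 genes were called over all 16 mice, against 0.0107% of the 18609 genes tested. Within CETPtg mice 0 of 9 were called, against 0% of all genes, and within APPtg/CETPtg mice 0 of 9, against 0.0430%. The difference between the genotypes in the response to evacetrapib, tested as an interaction, was called for 0 of 9 genes and 0% of all genes. At an unadjusted p under 0.05 there were 1, 1, 2 and 3 of the 9 genes in these 4 comparisons, against 7.91%, 5.80%, 9.01% and 6.83% of all genes. The median log2 fold change of the 9 genes over all mice was -0.012, beside -0.0015 over all genes tested. The 95% intervals of the 9 genes over all mice lay between -0.19 and 0.30 on the log2 scale. A fold change over all mice above 1.23 in either direction was therefore outside every interval. The same bound was wider in the other comparisons, at 1.35 within CETPtg mice, 1.36 within APPtg/CETPtg mice and 1.65 for the interaction. In DESeq2's Wald test the counts were again 0 of 9 in all 4 comparisons, although that test called 59 of all genes over all mice and 73 within APPtg/CETPtg mice.

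**Figure D2:**
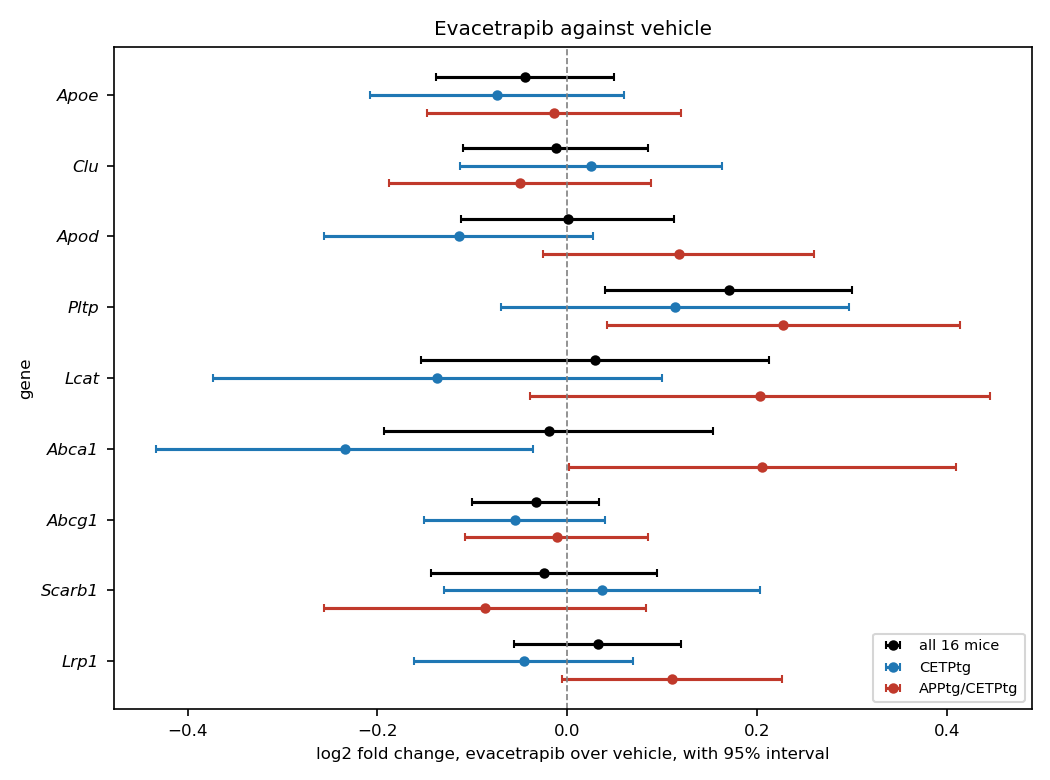
Log2 fold change of evacetrapib over vehicle (horizontal axis) with its 95% interval for each gene, over all 16 mice (black), within CETPtg mice (blue) and within APPtg/CETPtg mice (red). Abca1 lies at -0.23 for CETPtg against 0.21 for APPtg/CETPtg, while Pltp lies above 0 in all 3 comparisons.

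Among the secreted carriers, Apoe lay within its spread between mice. Its mean was 1459 ± 105 CPM in vehicle-treated and 1386 ± 104 CPM in evacetrapib-treated CETPtg mice (SD over 4 mice). The APPtg/CETPtg means were 1527 ± 79.1 and 1512 ± 94.0 CPM. The log2 fold change over all mice was -0.044 ± 0.045 (SE) for Apoe and -0.012 ± 0.047 for Clu. Apod, which binds small lipids such as arachidonic acid, gave 0.00077 ± 0.054 over all mice. That value combined -0.11 ± 0.068 for CETPtg with 0.12 ± 0.068 for APPtg/CETPtg. The interaction for Apod was 0.23 ± 0.096, with an adjusted p of 0.703.

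Pltp gave the largest treatment difference over all mice. In vehicle-treated CETPtg mice S1 to S4 it was at 77.1, 76.1, 83.4 and 96.1 CPM, and in evacetrapib-treated CETPtg mice A to D at 87.3, 95.6, 90.8 and 86.2 CPM. In vehicle-treated APPtg/CETPtg mice S5 to S8 it was at 66.0, 70.2, 74.7 and 91.7 CPM, and in evacetrapib-treated mice E to H at 84.6, 82.4, 93.9 and 94.9 CPM. In both genotypes 3 of the 4 vehicle-treated mice lay below every evacetrapib-treated mouse. The fourth lay above them in CETPtg mice (S4) and among them in APPtg/CETPtg mice (S8). The log2 fold change was 0.17 ± 0.062 over all mice (adjusted p = 0.50) and 0.23 ± 0.089 within APPtg/CETPtg mice (adjusted p = 0.455). An exact permutation test that kept the genotypes apart gave an unadjusted two-sided p of 0.0269 over all mice. Without S8 the value within APPtg/CETPtg mice was 0.34, with an adjusted p of 0.0891. Choroid plexus markers summed to 473 CPM in S8 and to 17.7 CPM in S4, the mouse with the highest Pltp. Summed endothelial markers moved with treatment as well, from 186 to 249 CPM in the 8 vehicle-treated mice and from 235 to 293 CPM in the 8 evacetrapib-treated mice. S4 and S8 had the highest endothelial sums of the vehicle-treated mice, at 249 and 239 CPM. All 10 endothelial and all 10 mural cell markers were higher with evacetrapib over all mice, and none was at 0 in any mouse. Of these, 0 and 1 were called, against 0.0107% of all genes. At an unadjusted p under 0.05 there were 9 endothelial and 8 mural cell markers, against 7.91% of all genes. Their part in the Pltp values was not tested. Lcat, the enzyme that esterifies cholesterol on HDL, gave 0.029 ± 0.088 over all mice, from -0.14 ± 0.11 within CETPtg and 0.20 ± 0.12 within APPtg/CETPtg mice.

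Abca1, the transporter that loads lipid onto new HDL-like particles, differed in opposite directions in the genotypes. In vehicle-treated CETPtg mice S1 to S4 it was at 57.2, 63.2, 64.1 and 57.9 CPM, and in evacetrapib-treated CETPtg mice A to D at 48.6, 49.2, 54.3 and 54.0 CPM. These groups did not overlap, which held for 1 of the 9 genes and for 3.92% of all genes in CETPtg mice. The log2 fold change there was -0.23 ± 0.095, with an adjusted p of 0.837 and an unadjusted exact permutation p of 0.0286, the smallest that 4 mice against 4 can give. In vehicle-treated APPtg/CETPtg mice S5 to S8 Abca1 was at 43.7, 53.5, 46.4 and 42.6 CPM, and in evacetrapib-treated mice E to H at 55.5, 45.3, 66.6 and 47.0 CPM. These groups overlapped, as did those of the other 8 genes in APPtg/CETPtg mice, where 4.29% of all genes did not. The log2 fold change was 0.21 ± 0.097 with an adjusted p of 0.551. The interaction was 0.44 ± 0.14, the largest of the 9 genes, and its adjusted p was 0.703. Without mouse G, the highest of all, the value within APPtg/CETPtg mice was 0.089 and the interaction 0.32 (adjusted p = 0.949). Markers of fibroblasts and meninges moved alongside: their summed level was 121 to 156 CPM in S5 to S8 and 156 to 190 CPM in E to H, beside 152 to 170 CPM in S1 to S4 and 151 to 162 CPM in A to D. All 10 were higher with evacetrapib within APPtg/CETPtg mice and had an interaction above 0, with a median of 0.38, 9 of 10 were lower in APPtg/CETPtg mice of the vehicle groups with 1 called, and none was at 0 in any mouse. Of these markers, 0 were called by edgeR's test for treatment or interaction, and 3 had an unadjusted p under 0.05 in the interaction. Their part in the Abca1, Pltp and Lrp1 values was not tested. Each of these treatment comparisons shares its vehicle group with the genotype comparison in vehicle-treated mice.

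The other exporter and the receptors differed little with treatment. Abcg1, which exports cholesterol to particles that already hold lipid, gave -0.033 ± 0.032 over all mice, with an interval from -0.10 to 0.034. Scarb1, which takes up cholesteryl ester from HDL, gave -0.024 ± 0.057. Lrp1, a large endocytic receptor for apolipoprotein E, gave 0.032 ± 0.042 over all mice, -0.046 ± 0.055 within CETPtg and 0.11 ± 0.055 within APPtg/CETPtg mice.

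APPtg/CETPtg mice had lower Abcg1 over all mice, and lower Abca1 and Lrp1 in the vehicle groups, than CETPtg mice. Of these calls only that of Abcg1 held when trends with exon length and GC content were removed, as described below. Over all mice 1 of 9 genes was called, Abcg1, against 17.7% of all genes, and 4 of 9 had an unadjusted p under 0.05, against 30.5%. In vehicle-treated mice 2 of 9 were called, Abca1 and Lrp1, against 10.4% of all genes, and 4 of 9 had an unadjusted p under 0.05, against 25.2%. In evacetrapib-treated mice 0 of 9 were called, against 2.99%, and 2 of 9 had an unadjusted p under 0.05, against 19.3%. All 3 genes called in these comparisons were lower in APPtg/CETPtg mice. With so many genes called, these shares do not set the 9 genes apart from the rest. Their median log2 fold change was 0.044 over all mice, -0.072 in vehicle-treated and 0.057 in evacetrapib-treated mice, beside 0.0046, -0.0012 and 0.0089 over all genes.

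**Figure D3:**
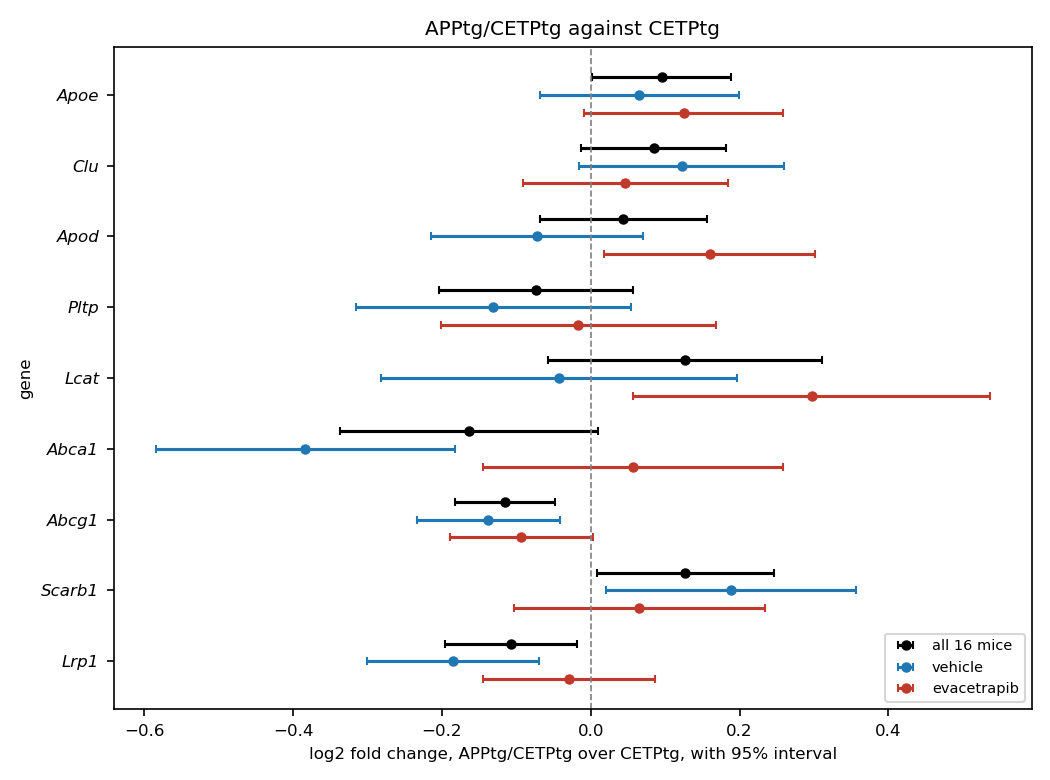
Log2 fold change of APPtg/CETPtg over CETPtg (horizontal axis) with its 95% interval for each gene, over all 16 mice (black), in vehicle-treated mice (blue) and in evacetrapib-treated mice (red). Abca1 in vehicle-treated mice lies farthest from 0, at -0.38, and Abcg1 lies below 0 in all 3 comparisons.

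Abca1 averaged 60.6 ± 3.55 CPM in vehicle-treated CETPtg and 46.5 ± 4.89 CPM in vehicle-treated APPtg/CETPtg mice (SD over 4 mice). All 4 CETPtg mice, listed above, lay above all 4 APPtg/CETPtg mice. The log2 fold change was -0.38 ± 0.096, with an adjusted p of 0.0172. The adjusted p was 0.0600 without S3 and 0.0560 without S8, so the call rested on each of them. In evacetrapib-treated mice the means were 51.5 ± 3.04 and 53.6 ± 9.73 CPM, with a log2 fold change of 0.057 ± 0.096. The difference between these values is the interaction given above and did not pass the test. Over all mice the value was -0.16 ± 0.083 (adjusted p = 0.191), and without mouse G it was -0.24 (adjusted p = 0.0154).

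Lrp1 was at 692, 699, 668 and 720 CPM in vehicle-treated CETPtg mice S1 to S4 and at 590, 602, 640 and 611 CPM in APPtg/CETPtg mice S5 to S8. The groups did not overlap, and the log2 fold change was -0.19 ± 0.055 with an adjusted p of 0.0393. The call was lost without any 1 of S1, S2, S3, S4, S5, S6 or S8, with adjusted p from 0.0559 to 0.0917. In evacetrapib-treated mice Lrp1 averaged 673 ± 37.8 CPM in CETPtg and 660 ± 52.9 CPM in APPtg/CETPtg mice, a log2 fold change of -0.029 ± 0.055.

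Abcg1 was lower in APPtg/CETPtg mice under both treatments, with an interaction of 0.044 ± 0.065. It was at 103, 102, 101 and 101 CPM in S1 to S4 and at 93.4, 89.6, 97.7 and 89.7 CPM in S5 to S8. In evacetrapib-treated mice it was at 93.7, 101, 96.8 and 100 CPM in A to D and at 85.9, 96.5, 95.4 and 89.8 CPM in E to H. The vehicle groups did not overlap and the evacetrapib groups did. The log2 fold change over all mice was -0.12 ± 0.032, with an adjusted p of 0.0169, and the call held without each mouse in turn. In vehicle-treated mice alone it was -0.14 ± 0.046 (adjusted p = 0.0622), and in evacetrapib-treated mice -0.093 ± 0.046. Abca1, Lrp1 and Abcg1 were the 3 of 9 genes whose vehicle groups did not overlap, against 17.0% of all genes, and 0 of 9 did so in evacetrapib-treated mice, against 10.8%.

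The remaining carriers and Scarb1 were not called in any genotype comparison. Apoe gave 0.095 ± 0.045 over all mice (adjusted p = 0.157) and Clu 0.084 ± 0.047. Scarb1 was higher in APPtg/CETPtg mice by 0.13 ± 0.057 over all mice and by 0.19 ± 0.080 in vehicle-treated mice, with S6 the highest at 46.2 CPM. Lcat differed by 0.30 ± 0.11 and Apod by 0.16 ± 0.068 in evacetrapib-treated mice, both higher in APPtg/CETPtg mice. In vehicle-treated mice the same genes gave -0.043 ± 0.11 and -0.072 ± 0.068. Pltp gave -0.074 ± 0.062 over all mice.

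Genotype differences of all genes moved with exon length. In vehicle-treated mice the median log2 fold change was 0.11 for 4024 genes under 2 kb of exons and -0.11 for 2743 genes over 8 kb. Abca1 (10.4 kb), Lrp1 (17.7 kb) and Scarb1 (8.50 kb) are in the longest class, and Abcg1 has 7.30 kb. The longest transcript of Scarb1 has only 3.09 kb, and the median was 0.043 for genes of 2 to 4 kb. When each mouse's trend with summed exon length and GC content was removed, 0 of 9 genes were called in vehicle-treated mice, beside 598 of all 18609 genes. Abca1 was then at -0.27 ± 0.091 (adjusted p = 0.103) and Lrp1 at -0.059 ± 0.044 (adjusted p = 0.498). Abcg1 over all mice was at -0.10 ± 0.029 and stayed called, with an adjusted p of 0.0339. Scarb1 moved away from 0, to 0.26 ± 0.078 in vehicle-treated mice (adjusted p = 0.0691). That move may depend on the length used, as no correction by transcript length was run. The medians of the length classes also moved for the interaction, from -0.050 under 2 kb to 0.037 over 8 kb, and for treatment within APPtg/CETPtg mice, from -0.020 to 0.025. They lay between -0.0066 and 0.0045 for treatment over all mice. With the trend removed, Abca1 had an interaction of 0.38 ± 0.13 and a treatment difference of 0.16 ± 0.093 within APPtg/CETPtg mice. Over all mice the genotype difference of Apoe turned to -0.0023 ± 0.037, that of Clu shrank to 0.023 ± 0.044 and that of Pltp grew to -0.16 ± 0.059. In evacetrapib-treated mice that of Lcat became 0.19 ± 0.11, and in vehicle-treated mice -0.18 ± 0.11.

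**Figure D4:**
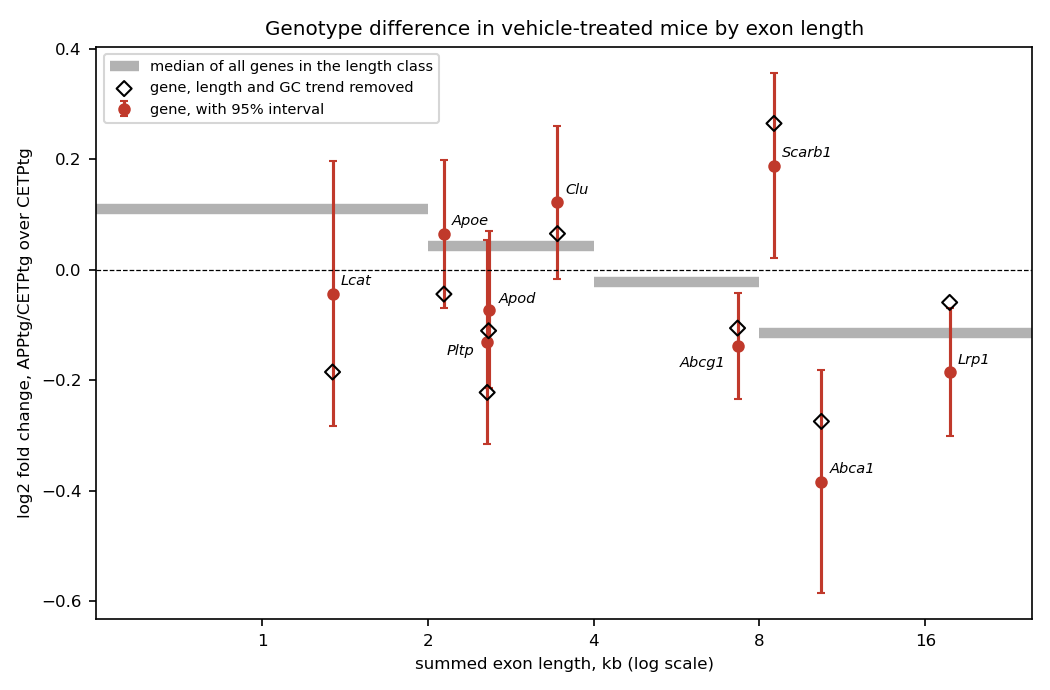
Log2 fold change of APPtg/CETPtg over CETPtg in vehicle-treated mice (vertical axis) against summed exon length in kb (log scale). Red points are the 9 genes with 95% intervals, diamonds the same genes with the length and GC trend removed, and grey bars the median of all genes in 4 length classes, which falls from 0.11 to -0.11. Lrp1 moves from -0.19 to -0.059 and Abca1 from -0.38 to -0.27.

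Markers of glia differed by genotype alongside these genes. The 10 astrocyte markers summed to 3439 to 3703 CPM in vehicle-treated CETPtg and 2842 to 3361 CPM in vehicle-treated APPtg/CETPtg mice, and 5 of 10 were called lower, beside 10.4% of all genes called. The other 5 (Gfap, Aldh1l1, Gjb6, Aldoc and S100b) had values above 0 and were not called, while Slc1a2, the most abundant of the 10, had a mean of 1724 CPM in the former and 1316 CPM in the latter group. With the length and GC trend removed, 1 of the 5 called lower, Sox9, stayed called, beside 598 of all 18609 genes called. The 10 oligodendrocyte markers were all lower in APPtg/CETPtg mice over all mice, 6 of them called, while 4 of 10 microglial markers were called higher and none lower, beside 17.7% of all genes. With the trend removed, 4 oligodendrocyte markers were called lower and 1 microglial marker, Tmem119, higher, beside 1453 of all 18609 genes called. None of these markers was at 0 in any mouse. Their part in the values of Abca1, Abcg1 and Lrp1 was not tested.

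Of 72 other genes of lipoprotein and cholesterol handling, none was called in a treatment comparison. The smallest p over all mice belonged to Abcb1a, a lipid and drug exporter of brain capillaries, at 0.18 ± 0.053 (adjusted p = 0.337). Next among the receptors was Lrp4, at 0.21 ± 0.064 (adjusted p = 0.359). The 5 other apolipoprotein genes tested, of 14 listed, had low levels, with means of 0.27 to 0.70 CPM. All 5 gave values below 0 over all mice, with Apoc1 lowest at -0.53 ± 0.24 (adjusted p = 0.607). That sign was not shared in either genotype alone, as 2 of the 5 lay above 0 for CETPtg and 1 for APPtg/CETPtg. Of the LXR pathway genes, Lpcat3, which remodels phospholipid, gave 0.11 ± 0.047 (adjusted p = 0.565).

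By genotype over all mice, 5 of the 72 were called higher and 10 lower, beside 17.7% of all genes. Among receptors and their partners, Lrpap1, a chaperone of LRP1, was higher by 0.15 ± 0.030, and Vldlr and Scarb2 were lower, Scarb2 at -0.13 ± 0.028. Among transporters, 2 were lower, Abca5 at -0.15 ± 0.044 and Abca8a at -0.25 ± 0.085. In the LXR pathway, the stearoyl-CoA desaturases Scd1 and Scd2 were lower, at -0.33 ± 0.048 and -0.25 ± 0.040, the corepressor Ncor1 was lower, and Nr1h2, which encodes LXRβ, was higher by 0.15 ± 0.039. Within cells, Npc1, which carries cholesterol out of lysosomes, fell by 0.17 on the log2 scale, and Soat1, which esterifies cholesterol for storage, by 0.24. Nceh1 was also lower, while Stard3, Gramd1a and Ch25h were higher. Ch25h had a mean of only 0.47 CPM over all mice and 0.78 ± 0.58 CPM (SD) in evacetrapib-treated APPtg/CETPtg mice. Scd1 and Scd2 were the 2 of 72 called in evacetrapib-treated mice as well, beside 2.99% of all genes. With the length and GC trend removed, 4 of the 72 were called higher over all mice (Lrpap1, Ldah, Stard3 and Gramd1a). Another 3 were called lower (Scarb2, Scd1 and Scd2), beside 1453 of all 18609 genes called. Scd1 and Scd2 are also made in oligodendrocytes, whose markers were lower in the same mice, and the part of those cells was not tested.

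The 9 genes did not vary as 1 block from mouse to mouse. After the group means were removed, Pearson's r of log2 CPM over the 16 mice ranged from -0.34 to 0.72 in the 36 pairs, with a median of 0.14. Apoe and Apod had the highest r, 0.72 (permutation p = 0.00367, adjusted p = 0.132), and a Spearman's rho of 0.81 (permutation p = 0.00086, adjusted p = 0.0310), and r was 0.63 without the 2 mice farthest from the median of Apoe. Abcg1 and Lrp1 had an r of 0.70 (permutation p = 0.0189, adjusted p = 0.161) and a rho of 0.59 (permutation p = 0.0476, adjusted p = 0.320). That r was 0.51 without the 2 mice farthest from the median of Abcg1. Of the 36 pairs, 0 passed an adjusted p of 0.05 by r and 1 by rho. The exporters Abca1 and Abcg1 had an r of -0.020 (permutation p = 0.959, adjusted p = 0.978) and a rho of -0.024 (permutation p = 0.946).

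**Figure D5:**
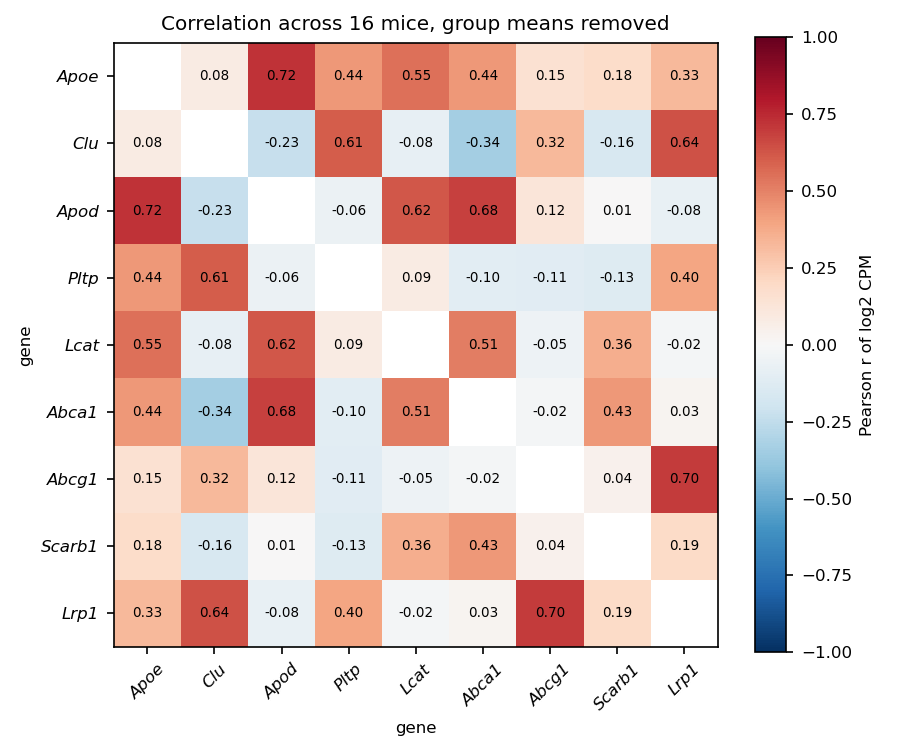
Pearson's r of log2 CPM between each pair of the 9 genes (both axes) over 16 mice after the mean of each group was removed. Color runs from -1 (blue) to 1 (red), and Apoe with Apod (0.72) and Abcg1 with Lrp1 (0.70) are the highest.

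Among all 18609 genes, those most like each member were named by the same measure, as a description over 16 mice that share libraries and depth. Picked as the highest of so many genes over so few mice, these r are high by selection and were not tested. For Apoe they were Eif3f (r = 0.93), Slc38a3 and Caskin2, and for Clu Nbas (r = 0.94), Cspg4 and Ambra1. For Apod they were Casp2 (r = 0.88), H2-K2 and Smtnl2, and for Pltp Itgb5 (r = 0.90), Sfxn5 and Gna12. Those of Lcat were Dlgap4 (r = 0.93), Actn4 and Nlrc3, and those of Abca1 Cxcr4 (r = 0.91), Cish and Dock10. Abcg1 was closest to Oscar (r = 0.92), Lrrtm1 and Prrt2. Scarb1 was closest to D830039M14Rik (r = 0.94), Usp19 and Myh9, the first at a mean of only 0.289 CPM. Low as well were Nlrc3 (1.01 CPM), Smtnl2 (1.25), Cxcr4 (1.58), Oscar (1.71) and H2-K2 (2.23). Lrp1 was closest to Plxnb1 (r = 0.93), Bcar1 and Scaf1. None of the 9 genes was among the 3 closest genes of another.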

How the data were processed

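The authors enriched poly(A) RNA from bulk brain, made directional libraries, and trimmed paired reads with Trimmomatic (version 0.39). They aligned them to mm10 with STAR (version 2.7.8a) and used HTSeq-count for counting. Raw counts per gene were deposited, without normalization, and 0 value columns were left unmapped. Annotation came from GENCODE M21. Of 55487 gene identifiers, 55141 were in it.

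Here, TMM factors scaled the counts, and edgeR (version 4.0.16, R 4.3.3) fitted its quasi-likelihood model to 18609 genes that reached 10 counts in 4 or more mice, with Benjamini-Hochberg adjustment over them all. Comparisons over all mice had terms for genotype and treatment, and those within a group used a mean for each of the 4 groups. CPM for correlations was taken as log2 with a prior count of 2. SE and 95% intervals came from the fit. Replicates were single mice, and same-group pairs differed beyond counting noise (chi-square over degrees of freedom of 4.59 to 20.6). Self-tests on simulated counts of 18370 genes recovered 44.0% of genes changed by 0.25 and 88.0% of those changed by 0.5 on the log2 scale for treatment over all mice. For genotype in vehicle-treated mice, 13.0% of genes changed by 0.25 (of 18377, with 10.3% of calls false) and 74.5% of those changed by 0.5 (of 18374) were recovered. The changed genes were all well counted and outnumbered the genes called for treatment in the data. No trend with exon length was simulated. Recovery in the real comparisons may therefore be lower. Correlations used 1e+05 permutations within groups. Alternatives were DESeq2 (version 1.42.0), limma-voom (limma version 3.58.1), other filters, terms and thresholds, and each mouse left out. The length and GC correction (99.86% of tested genes had values) and the replicate block were added after seeing the data.

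The 9 genes and all lists were chosen with earlier results of these data known. Named besides them were list genes called in any comparison, the list genes of smallest p over all mice, and the 3 genes most like each member.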

Additional observations from a re-analysis of the deposited data

How the results depend on the processing

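In the treatment comparisons and the interaction, 0 of 9 genes were called under every alternative fit, filter and threshold. The exact permutation test, whose p was not adjusted, gave 0.0269 for Pltp over all mice and 0.0286 for Abca1 within CETPtg mice. Over all genes, treatment calls over all mice moved from 2 to 35 without a count filter, 59 in DESeq2 and 1 without a genotype term, and leaving out 1 mouse gave 0 to 8, the highest without S8. Within APPtg/CETPtg mice 8 calls became 88 without a filter, 73 in DESeq2, 2 with the fit limited to 8 mice and 5 with the replicate block, and 0 (without G) to 14 (without S8) when 1 mouse was left out. Without a filter 9 genes were called within CETPtg, and the interaction gave 29 genes, 2 in DESeq2 and 0 to 1 without 1 mouse. Genotype calls fell from 3299 to 1453 over all mice, from 1934 to 598 with vehicle and from 556 to 158 with evacetrapib once length and GC trends were removed, and to 0 of the 9 genes with vehicle. At an adjusted p of 0.1 there were 3007 calls with vehicle and 1260 with evacetrapib, where DESeq2 gave 1135 and the fit limited to 8 mice 351. Without 1 mouse these counts were 909 (without S3) to 1998 and 91 (without A) to 858 (without B). Over all mice 2 of the 9 genes were called in DESeq2 and at 0.1, and 1 to 3 (without G) when 1 mouse was left out. With vehicle the range was 0 (without S3 or S8) to 3 (without E or S7). The causes were not tested. At the depth of these libraries no gene of the 9 had fewer than 310 counts in a mouse.

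Some values changed sign. Under the length and GC correction these were Lrp1 (-0.0023) for treatment over all mice, Apoe (0.00056) for treatment within APPtg/CETPtg, Apoe for genotype over all mice (-0.0023) and in vehicle-treated mice (-0.044), and Clu for genotype in evacetrapib-treated mice (-0.019), and under limma-voom Apod for treatment over all mice (-0.0017). The sign depended on single mice for treatment over all mice in Clu (-0.027 to 0.016), Apod (-0.024 to 0.032), Lcat (-0.012 to 0.082), Abca1 (-0.088 to 0.012), Scarb1 (-0.046 to 0.026). The sign depended on single mice for treatment within CETPtg in Clu (-0.0073 to 0.069). The sign depended on single mice for treatment within APPtg/CETPtg in Apoe (-0.048 to 0.033), Clu (-0.087 to 0.0043), Abcg1 (-0.028 to 0.025), Scarb1 (-0.14 to 0.012). The sign depended on single mice for genotype in vehicle-treated mice in Lcat (-0.15 to 0.023). The sign depended on single mice for genotype in evacetrapib-treated mice in Clu (-9.44e-05 to 0.091), Pltp (-0.051 to 0.016), Abca1 (-0.070 to 0.13), Lrp1 (-0.071 to 0.020). None of these was called. Without removal of group means, 2 gene pairs passed by r, Apod with Lcat and Abcg1 with Lrp1.

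The GEO titles share no replicate numbers between groups. The count table's first header line numbers the mice of each group. Same-numbered mice of different groups had a median correlation of -0.0016 after group means were removed, with 5 of 24 above 0.1. For mice with other numbers it was 0.024, with 29 of 72 above 0.1. Such correlations cannot show whether the numbers mark litters, cages or batches. The replicate block, added after seeing the data, changed no call among the 9 genes.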
